A study of Homo sapiens with 6 samples.

Results

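The genes described here are 60 genes of mitosis, the cyclins and kinases that drive cells into division, the kinetochore, spindle checkpoint and anaphase-promoting complex (APC/C) proteins that govern chromosome separation, the spindle and cytokinesis proteins, the condensins, and a pair of transcription factors of mitotic genes. They were listed by name, and no measured value entered the rule, although earlier results of these data were known. All 60 were found by symbol among the 26410 rows of the count table (SGO1 under its older symbol SGOL1), and all 60 were among the 13014 genes that passed the filter on low counts. The cells were Kasumi-1, a human line from an acute myeloid leukaemia with the RUNX1::RUNX1T1 fusion. The first group, of 3 libraries (shPHF19), came from cells that carried a lentiviral hairpin against PHF19, an accessory subunit of Polycomb repressive complex 2, which methylates histone H3. The second group, of 3 libraries (control), came from cells given a scrambled hairpin in the same lentiviral system. Cells of both groups were kept in puromycin at 2 µg/ml from 48 h onwards, for at least 24 h. Control samples carry WT as their treatment label, although they are titled control and the protocol names the scrambled hairpin. Nothing in the labels says that the replicates were separate cultures, so every p-value rests on library-to-library spread that may be only technical. How many hairpins were used, and their sequences, the sources used here do not give, and all results are from 1 cell line.

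Entry into mitosis is set off when cyclin B binds CDK1 and CDC25 phosphatases remove the inhibitory phosphates that WEE1 places on it. Kinetochores then attach chromosomes to spindle microtubules, and the spindle checkpoint holds back the APC/C until every chromosome is attached, after which CDC20-bound APC/C tags securin and cyclin B for destruction and the sister chromatids part. Many of these genes are transcribed late in the cell cycle through a promoter element named CHR (cell cycle genes homology region), bound by the MuvB complex with MYBL2 and FOXM1, often beside CCAAT boxes bound by NF-Y.

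The libraries held 14663463 to 16615143 counts in shPHF19 cells and 14229878 to 15961787 counts in control cells, so that 3 counts were worth 0.177 to 0.223 CPM (counts per 1e6 TMM-scaled counts of a library). PHF19 itself was at 41.1, 36.9 and 33.0 CPM in shPHF19 replicates 1 to 3, against 167, 199 and 189 CPM in control replicates 1 to 3. It was 5.00-fold lower in shPHF19 cells (log2 fold change -2.32, SE 0.0975, edgeR quasi-likelihood adjusted p = 3.55e-25), as the labels state. Of the markers of the line, CD34 averaged 830 CPM in shPHF19 and 357 CPM in control cells, CD33 82.2 and 39.9 CPM, MPO 8390 and 4280 CPM, KIT 3290 and 2940 CPM, and RUNX1T1, the fusion partner, 146 and 188 CPM. The summed level of 12 markers of T, B, epithelial, fibroblast, endothelial and erythroid cells was 137 to 151 CPM in shPHF19 libraries and 93.9 to 108 CPM in control libraries. Most of it was EPCAM (84.7 and 56.8 CPM) and CD3D (48.8 and 33.2 CPM). CDH5 was at 0 in the control libraries. The part of these shifts in the results below was not tested.

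Most of the mitotic genes were higher in shPHF19 cells. With edgeR's quasi-likelihood test and an adjusted p under 0.05 over all genes tested, 43 of the 60 rose, 7 fell and 10 did not pass. Without control replicate 1 only 3 fell, and without shPHF19 replicate 1 or shPHF19 replicate 2 only 4 fell. The share called in either direction was 83.3%, against 60.2% of all genes tested. The share that rose was 71.7%, against 29.4% of all genes, and the share that fell was 11.7%, against 30.9% of all genes. The median log2 fold change of the 60 was 0.61, against -0.03 over all genes tested. Scaled by library totals alone, in place of TMM factors, the median of all genes was -0.24 and that of the 60 was 0.41, so the 60 stood 0.65 above the median gene with TMM and 0.64 above it with totals. Of all called genes, 48.8% were higher with TMM and 31.5% with totals alone. A rise of at least 2-fold was called for 11 of the 60 (18.3%), against 5.72% of all genes, and none of the 60 fell that far. These 11 were CCNB1, CDCA3, BIRC5, PLK1, AURKB, INCENP, CDC20, PTTG1, TPX2, TACC3 and CDCA2. UBE2S and GTSE1 lay just under this bound.

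The 7 that fell were PBK, NDC80, SGO1, HMMR, CKAP2, SMC2 and SMC4. The 10 that did not pass were CDK1, NEK2, MELK, BUB3, TTK, CENPE, NUF2, ASPM, ANLN and ECT2. In 48 of the 60 the libraries of the groups did not overlap in CPM, 42 of them higher in shPHF19 cells and 6 lower, against no overlap in 63.5% of all genes tested. Summed, the 60 genes held 0.713, 0.733 and 0.739% of all counts in shPHF19 replicates 1 to 3, against 0.544, 0.517 and 0.542% in control replicates 1 to 3. Every shPHF19 library was above every control library in this share. The median of the 60 genes stood at 106, 109 and 103 CPM in the shPHF19 libraries and at 67.6, 67.2 and 66.6 CPM in the control libraries. In bulk RNA, more cells in mitosis and more mitotic RNA in each cell cannot be told apart.

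**Figure D1:**
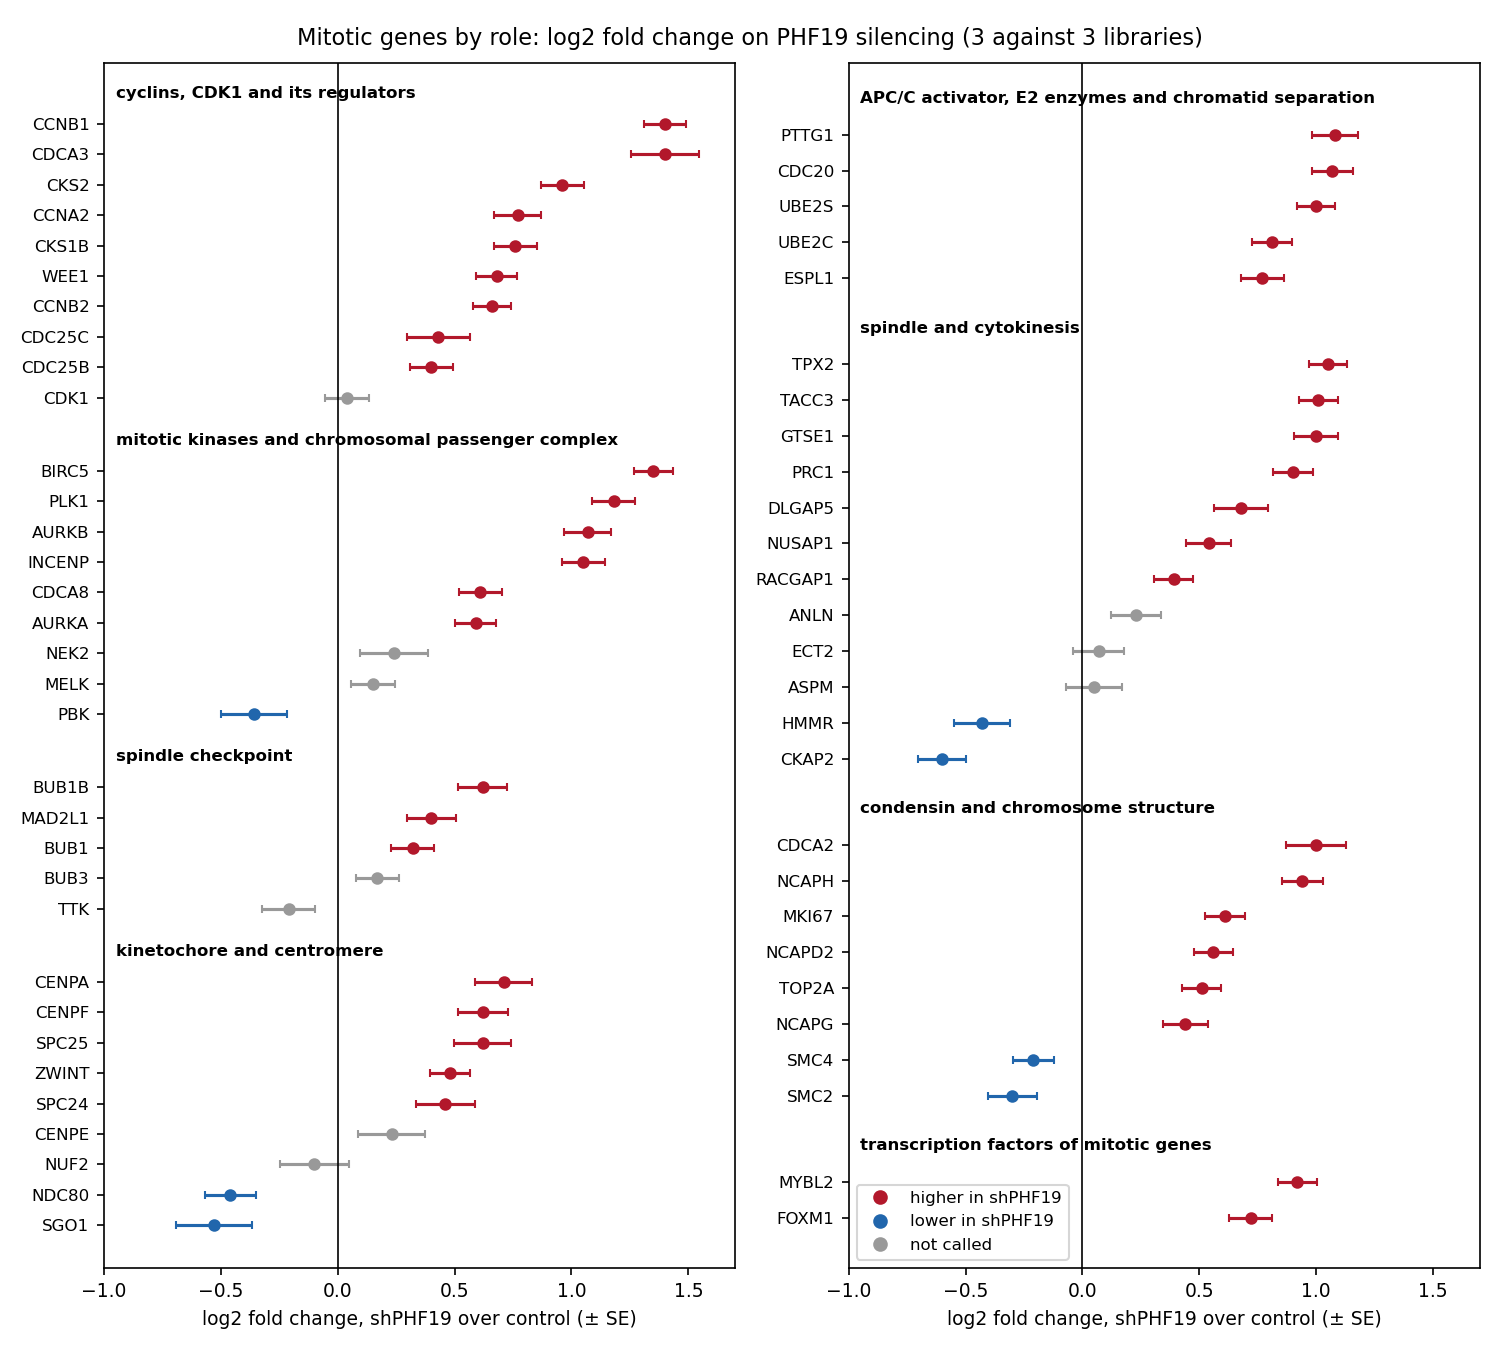
Log2 fold change of each of the 60 mitotic genes, shPHF19 over control, on the horizontal axis, with bars of 1 SE, grouped by role and ordered by value within each role (3 against 3 libraries). Red points rose, blue points fell and grey points did not pass an edgeR adjusted p of 0.05; rises reach 1.40 (CCNB1, CDCA3) and falls reach -0.60 (CKAP2).

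Most of these genes carry the promoter letters by which mitotic genes are known. RefSeq promoters (GRCh38.p14, 250 bases before to 50 after the start, 300 bases in all) were given for 49 of the 60 genes and for 9633 of all genes tested, and were searched on both strands. The CHR letters TTTGAA were in 32 of 49 (65.3%), against 9.89% of all promoters, and the NF-Y letters CCAAT in 35 of 49 (71.4%), against 36.7%. Both were in 25 of 49 (51.0%), against 4.13%. The E-box CACGTG was in 8 (16.3%, against 10.4%), and the E2F letters TTTCCCGC in 1 (2.04%, against 2.65%). Matches of each motif were counted whether or not they shared letters with another match, as in CCAATTGG of HMMR, and a match describes the sequence and is no evidence of binding. Genes that rose and genes that fell both held CHR letters: 23 of the 35 that rose, 4 of the 6 that fell and 5 of the 8 that did not pass. CCAAT was in 29 of 35, 2 of 6 and 4 of 8 of the same classes, and the pair of motifs in 21 of 35, 1 of 6 and 3 of 8. The 250 bases before the start are shown for a B-type cyclin (CCNB2), an APC/C activator (CDC20) and a kinase (PLK1), all of which rose, and for HMMR, which fell, since all 4 hold both motifs. They lie at chr15:59104896-59105145, chr1:43358731-43358980, chr16:23678639-23678888 and chr5:163460382-163460631, all on the plus strand, and capitals mark TTTGAA and CCAAT or their reverse complements TTCAAA and ATTGG.
CCNB2: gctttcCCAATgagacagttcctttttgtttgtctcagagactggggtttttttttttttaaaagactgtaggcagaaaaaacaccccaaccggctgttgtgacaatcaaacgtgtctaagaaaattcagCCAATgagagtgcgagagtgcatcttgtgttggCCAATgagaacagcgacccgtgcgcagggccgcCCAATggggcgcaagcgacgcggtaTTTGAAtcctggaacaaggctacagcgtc
CDC20: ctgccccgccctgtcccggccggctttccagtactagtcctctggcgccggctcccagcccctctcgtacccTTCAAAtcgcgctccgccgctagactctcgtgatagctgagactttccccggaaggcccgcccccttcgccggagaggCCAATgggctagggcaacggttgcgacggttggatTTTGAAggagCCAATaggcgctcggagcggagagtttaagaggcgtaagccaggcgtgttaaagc
PLK1: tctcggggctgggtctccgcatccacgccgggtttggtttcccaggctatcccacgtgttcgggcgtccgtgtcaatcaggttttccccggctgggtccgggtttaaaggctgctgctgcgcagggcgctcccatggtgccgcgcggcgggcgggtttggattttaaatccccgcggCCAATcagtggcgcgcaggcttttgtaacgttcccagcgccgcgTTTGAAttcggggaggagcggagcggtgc
HMMR: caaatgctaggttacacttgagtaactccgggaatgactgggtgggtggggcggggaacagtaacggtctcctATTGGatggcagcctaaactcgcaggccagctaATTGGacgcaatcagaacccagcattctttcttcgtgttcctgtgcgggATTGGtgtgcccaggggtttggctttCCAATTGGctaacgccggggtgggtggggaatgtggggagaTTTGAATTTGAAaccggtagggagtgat
The CHR letters nearest the start began 29 bases before it in CCNB2 and PLK1, 65 before it in CDC20, and 28 and 22 before it in HMMR. CCNB2 had 4 CCAAT matches, CDC20 had 2, PLK1 had 1 and HMMR had 5. Both motifs stood before the start of CCNB2, which rose (log2 fold change 0.66), and of HMMR, which fell (-0.43). HMMR was the only 1 of the 6 genes that fell to hold both, against 21 of the 35 that rose. Whether the motifs go with the direction of change was not tested.

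Cyclins, their small CKS partners and the enzymes that switch CDK1 rose, while CDK1 did not pass the test. Of 10 genes, 9 rose (90%, against 29.4% of all genes tested) and none fell, with a median log2 fold change of 0.72. The largest change was in CCNB1, cyclin B1, the main partner of CDK1 at mitotic entry (chr5:69167010-69178245, GRCh38). CCNB1 was at 178, 190 and 177 CPM in shPHF19 cells, against 68.6, 75.2 and 62.7 CPM in control cells, or 182 ± 7.18 and 68.8 ± 6.25 CPM (SD, n = 3 each). The groups were far apart, and CCNB1 was 2.64-fold higher in shPHF19 cells (log2 1.40, SE 0.0891, edgeR adjusted p = 1.84e-18). CDCA3, known from Xenopus as Tome-1, an adaptor for the destruction of WEE1, was at 35.7, 27.3 and 25.2 CPM in shPHF19 cells and at 11.3, 10.2 and 11.9 CPM in control cells. It was 2.63-fold higher (log2 1.40, SE 0.145, edgeR adjusted p = 1.4e-11), with shPHF19 replicate 1 above the other two. CKS2, a small CDK-binding protein, was at 106, 118 and 126 CPM in shPHF19 cells and at 61.1, 59.6 and 59.1 CPM in control cells (log2 0.96, SE 0.0923, edgeR adjusted p = 1.46e-12). Its paralogue CKS1B was at 106, 130 and 117 CPM in shPHF19 cells and at 67.2, 73.2 and 68.3 CPM in control cells (log2 0.76). Neither CKS gene overlapped between the groups. CKS1B has 6 annotated pseudogene copies, so its value depends on how reads shared with copies were counted.

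The second B-type cyclin, CCNB2, was at 227, 222 and 225 CPM in shPHF19 cells and at 146, 149 and 132 CPM in control cells (log2 0.66, SE 0.0829, edgeR adjusted p = 2.37e-09). CCNB2 was thus the more abundant B cyclin in counts in both groups, with a smaller rise than CCNB1. CCNA2, the cyclin of S phase and early mitosis, rose by 0.77 on the log2 scale, and WEE1, the kinase that holds CDK1 inactive, rose by 0.68. The phosphatases that oppose WEE1 rose less. CDC25B was at 113, 105 and 97.2 CPM in shPHF19 cells and at 72.3, 84.7 and 80.6 CPM in control cells (log2 0.40, edgeR adjusted p = 0.000186). CDC25C was at 24.1, 25.9 and 21.8 CPM in shPHF19 cells and at 17.2, 19.7 and 16.3 CPM in control cells (log2 0.43, edgeR adjusted p = 0.00522). Neither phosphatase overlapped between the groups. With library totals alone the log2 fold changes of CDC25B and CDC25C were 0.20 and 0.23, and neither passed the test (edgeR adjusted p = 0.0555 and 0.139, the highest over the alternatives, which ranged from 1.6e-05 for CDC25B and from 0.00219 for CDC25C). CDK1, the mitotic kinase itself (chr10:60778331-60794852), was at 106, 129 and 148 CPM in shPHF19 cells and at 138, 120 and 115 CPM in control cells. The groups overlapped, with means of 128 ± 20.9 and 124 ± 12.0 CPM (SD, n = 3 each; log2 0.04, SE 0.0958, edgeR adjusted p = 0.748). The value of CDK1 turned on single libraries, and its log2 fold change ranged from -0.07 to 0.16 when each was left out. With GC and length trends removed CDK1 was called higher (0.18, limma adjusted p = 0.0359).

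**Figure D2:**
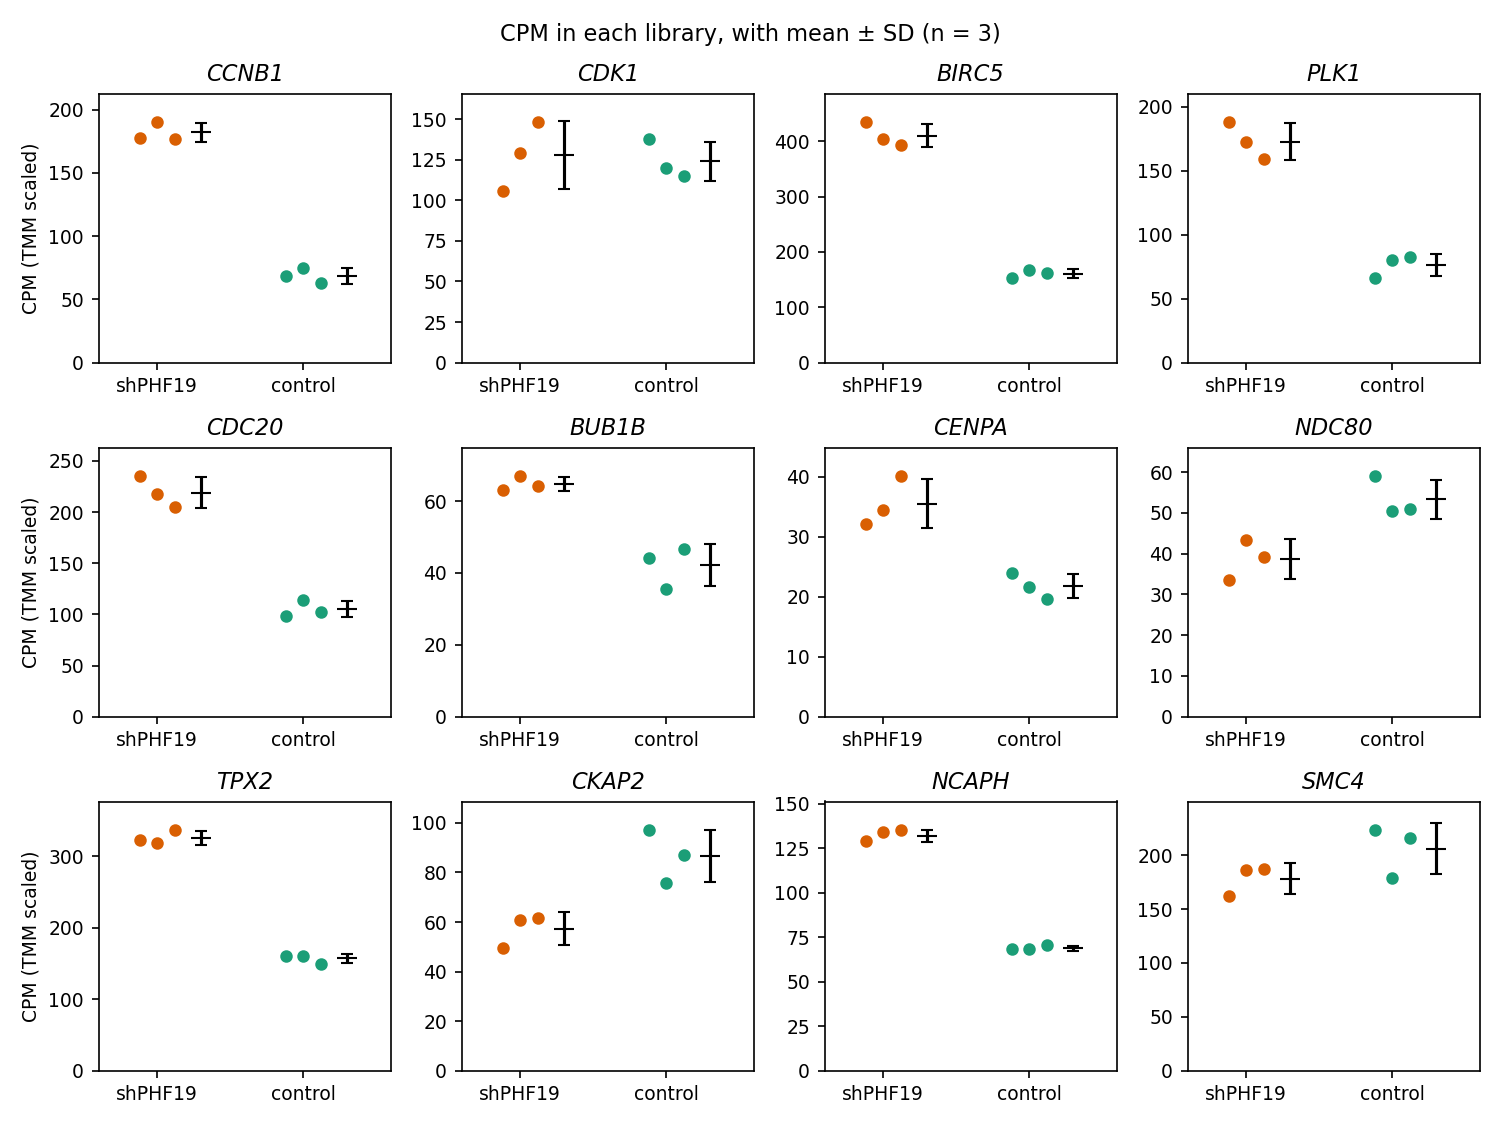
CPM (TMM scaled, linear vertical axis from 0) of 12 mitotic genes in each library, shPHF19 on the left and control on the right of each panel, with the mean ± SD (n = 3) beside the points. CCNB1, BIRC5, PLK1, CDC20, BUB1B, CENPA, TPX2 and NCAPH lie higher in every shPHF19 library, NDC80 and CKAP2 lie lower in every shPHF19 library, and CDK1 and SMC4 overlap.

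Among the mitotic kinases, the subunits of the chromosomal passenger complex and PLK1 rose. This complex of AURKB, INCENP, survivin and borealin corrects faulty kinetochore attachments and guides cytokinesis. Of 9 genes, 6 rose, 1 fell and 2 did not pass, with a median log2 fold change of 0.61. The share that rose was 66.7%, against 29.4% of all genes tested, and the share that fell 11.1%, against 30.9%. BIRC5 (survivin, chr17:78214186-78225636) was at 434, 404 and 393 CPM in shPHF19 cells and at 153, 168 and 162 CPM in control cells. Its means were 410 ± 21.1 and 161 ± 7.61 CPM (SD, n = 3 each), a 2.55-fold rise (log2 1.35, SE 0.0828, edgeR adjusted p = 4.4e-19). INCENP, the scaffold of the complex, was at 198, 188 and 176 CPM in shPHF19 cells and at 85.2, 81.2 and 105 CPM in control cells (log2 1.05, SE 0.0918, edgeR adjusted p = 8.03e-14). AURKB, its kinase, was at 83.0, 76.5 and 73.8 CPM in shPHF19 cells and at 35.6, 38.6 and 36.6 CPM in control cells (log2 1.07, SE 0.1, edgeR adjusted p = 5.92e-13). In all 3 of these genes every shPHF19 library was above every control library. CDCA8 (borealin), the remaining subunit, rose by 0.61 on the log2 scale.

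PLK1, the Polo-like kinase of mitotic entry and spindle assembly (chr16:23677656-23690367), was at 188, 173 and 159 CPM in shPHF19 cells and at 66.1, 80.4 and 82.7 CPM in control cells. The groups were apart, at 173 ± 14.2 and 76.4 ± 8.99 CPM (SD, n = 3 each), a 2.27-fold rise (log2 1.18, SE 0.0924, edgeR adjusted p = 2e-15). AURKA, the kinase of centrosomes and spindle poles, was at 130, 120 and 124 CPM in shPHF19 cells and at 85.4, 85.4 and 77.4 CPM in control cells, without overlap (log2 0.59, edgeR adjusted p = 1.46e-07). PBK, a mitotic kinase of the MAP kinase kinase family, was the member of this group that fell, at 16.6, 17 and 19.6 CPM in shPHF19 cells and 26.9, 18.7 and 23.0 CPM in control cells. Its groups overlapped (log2 -0.36, SE 0.141, edgeR adjusted p = 0.0247). Without control replicate 1 the PBK value was -0.23 (edgeR adjusted p = 0.209), and the call was also lost without shPHF19 replicate 1 (-0.31), shPHF19 replicate 2 (-0.33) or control replicate 3 (-0.35) and with DESeq2 (-0.34), with adjusted p from 0.000909 to 0.209 over all alternatives. MELK, a kinase of proliferating cells, was at 82.6, 92.0 and 94.7 CPM in shPHF19 cells and at 90.4, 74.4 and 77.9 CPM in control cells. The MELK groups overlapped (log2 0.15, SE 0.0943, edgeR adjusted p = 0.166), and NEK2, a kinase of centrosome separation, stood at 0.24 (edgeR adjusted p = 0.148). Without control replicate 1 both were called higher, at 0.24 for MELK (edgeR adjusted p = 0.0377, range over alternatives 0.0148 to 0.672) and 0.40 for NEK2 (edgeR adjusted p = 0.0257, range 0.0257 to 0.834).

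The spindle checkpoint genes rose or did not pass. The checkpoint proteins gather at unattached kinetochores and bind CDC20, which keeps the APC/C inactive. Of 5 genes, 3 rose (60%, against 29.4% of all genes tested) and 2 did not pass, with a median log2 fold change of 0.32. With library totals alone 1 rose and 1 fell. BUB1B (BubR1), which forms part of the inhibitor of the APC/C, was at 63.0, 66.9 and 64.3 CPM in shPHF19 cells and at 44.3, 35.5 and 46.7 CPM in control cells. The groups did not overlap (log2 0.62, SE 0.105, edgeR adjusted p = 1.93e-06). BUB1, a kinase that recruits other checkpoint proteins to the kinetochore, was at 105, 123 and 116 CPM in shPHF19 cells and at 98.2, 84.2 and 94.1 CPM in control cells (log2 0.32, edgeR adjusted p = 0.00227). MAD2L1 (MAD2), the protein that captures CDC20, was at 78.4, 91.0 and 102 CPM in shPHF19 cells and at 81.4, 59.9 and 64.9 CPM in control cells (log2 0.40, edgeR adjusted p = 0.000984). BUB1 did not overlap between the groups, whereas MAD2L1 did, through control replicate 1. With library totals alone neither BUB1 (log2 0.11, edgeR adjusted p = 0.286, range over alternatives 1.94e-05 to 0.286) nor MAD2L1 (log2 0.19, edgeR adjusted p = 0.122, range 3.9e-06 to 0.122) passed. BUB3, the partner of BUB1 and BubR1, was at 138, 168 and 161 CPM in shPHF19 cells and at 156, 129 and 131 CPM in control cells. It overlapped and did not pass (log2 0.17, SE 0.0901, edgeR adjusted p = 0.108), but was called higher without shPHF19 replicate 1 (0.25, edgeR adjusted p = 0.0106) or control replicate 1 (0.26, edgeR adjusted p = 0.0131), with adjusted p from 0.00011 to 0.728 over all alternatives. TTK (MPS1), the kinase that starts checkpoint signalling, is named here after its values were seen, because its groups did not overlap although it did not pass. TTK was at 30.2, 36.7 and 37.2 CPM in shPHF19 cells and at 41.0, 37.3 and 42.4 CPM in control cells (log2 -0.21, SE 0.113, edgeR adjusted p = 0.101). It was called lower with upper-quartile scaling (-0.31, edgeR adjusted p = 0.0143) and with library totals alone (-0.42, edgeR adjusted p = 0.00196), with adjusted p from 0.00196 to 0.421 over all alternatives.

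Kinetochore and centromere genes moved in both directions. Of 9 genes, 5 rose, 2 fell and 2 did not pass, with a median log2 fold change of 0.46. The share that rose was 55.6%, against 29.4% of all genes tested, and the share that fell 22.2%, against 30.9%. CENPA, the histone H3 variant that marks centromeres (chr2:26764289-26801067), was at 32.1, 34.5 and 40.1 CPM in shPHF19 cells and at 23.9, 21.7 and 19.7 CPM in control cells (log2 0.71, SE 0.123, edgeR adjusted p = 2.92e-06). CENPF, a large protein of the outer kinetochore, was at 61.3, 65.3 and 80.1 CPM in shPHF19 cells and at 48, 39.4 and 47.5 CPM in control cells (log2 0.62, SE 0.107, edgeR adjusted p = 2.66e-06). ZWINT, which links the RZZ complex to the kinetochore, was at 157, 164 and 172 CPM in shPHF19 cells and at 122, 115 and 116 CPM in control cells (log2 0.48, SE 0.084, edgeR adjusted p = 2.91e-06). In these 3 genes the shPHF19 libraries were all above the control libraries.

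The 4 subunits of the NDC80 complex, the rod that grips microtubule ends, did not move together. SPC25 rose by 0.62 on the log2 scale and its partner SPC24 was at 34.2, 29.3 and 26.3 CPM in shPHF19 cells and at 20.7, 23.3 and 21.2 CPM in control cells (log2 0.46, SE 0.127, edgeR adjusted p = 0.00168). SPC24 did not overlap between the groups and was not called with library totals alone (0.25, edgeR adjusted p = 0.0782, range over alternatives 0.000257 to 0.0782). NDC80 (chr18:2571511-2616635), which with NUF2 forms the end that touches the microtubule, fell. It was at 33.5, 43.3 and 39.2 CPM in shPHF19 cells and at 59.0, 50.4 and 51.0 CPM in control cells. The NDC80 groups did not overlap, with means of 38.7 ± 4.95 and 53.4 ± 4.8 CPM (SD, n = 3 each; log2 -0.46, SE 0.109, edgeR adjusted p = 0.00029). NUF2 was at 17.1, 21.7 and 28.6 CPM in shPHF19 cells and at 28.8, 22.9 and 20.8 CPM in control cells. NUF2 overlapped and did not pass (log2 -0.10, SE 0.146, edgeR adjusted p = 0.555), and its value ranged from -0.31 to 0.06 when each library was left out. SGO1 (shugoshin), which protects cohesin at centromeres, was at 11.7, 9.39 and 10.2 CPM in shPHF19 cells and at 17.9, 13.6 and 13.7 CPM in control cells. It was lower in every shPHF19 library (log2 -0.53, SE 0.162, edgeR adjusted p = 0.0041), although not called without control replicate 1 (-0.39, edgeR adjusted p = 0.055, range over alternatives 0.000172 to 0.055). CENPE, the kinesin that moves chromosomes to the spindle equator, did not pass (log2 0.23, edgeR adjusted p = 0.174). With GC and length trends removed CENPE was called higher (0.58, limma adjusted p = 0.000614).

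All 5 genes of APC/C activation and chromatid separation rose, against 29.4% of all genes tested. Their median log2 fold change was 1.0, the highest of the 8 role groups. CDC20, the APC/C activator that the checkpoint restrains (chr1:43358955-43363203), was at 235, 218 and 205 CPM in shPHF19 cells and at 98.8, 114 and 102 CPM in control cells. Its means were 219 ± 14.9 and 105 ± 8.03 CPM (SD, n = 3 each; 2.09-fold, log2 1.07, SE 0.0865, edgeR adjusted p = 6.89e-15). UBE2C, the E2 enzyme that starts ubiquitin chains on APC/C substrates, was at 170, 170 and 167 CPM in shPHF19 cells and at 99.8, 97.8 and 90.5 CPM in control cells (log2 0.81, SE 0.0849, edgeR adjusted p = 1.68e-11). UBE2S, the E2 enzyme that lengthens those chains, was at 343, 350 and 319 CPM in shPHF19 cells and at 161, 178 and 167 CPM in control cells (log2 1.0, SE 0.0824, edgeR adjusted p = 1.23e-14). Activator and both enzymes were higher in every shPHF19 library. PTTG1 (securin) is the inhibitor of separase and a substrate of the APC/C, and ESPL1 is separase, the protease that cuts cohesin. PTTG1 was at 80.8, 87.3 and 82.8 CPM in shPHF19 cells and at 40, 40.7 and 37.9 CPM in control cells (log2 1.08, SE 0.0979, edgeR adjusted p = 2.22e-13). ESPL1 was at 127, 124 and 112 CPM in shPHF19 cells and at 65.1, 72.1 and 75.5 CPM in control cells (log2 0.77, SE 0.0912, edgeR adjusted p = 5.33e-10). Inhibitor and protease thus rose side by side, without overlap between the groups. UBE2C has 4 annotated pseudogene copies and UBE2S has 2, with the same limit as for CKS1B.

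Of the 12 spindle and cytokinesis genes, 7 rose, 2 fell and 3 did not pass, with a median log2 fold change of 0.46. The share that rose was 58.3%, against 29.4% of all genes tested, and the share that fell 16.7%, against 30.9%. TPX2, which activates AURKA and nucleates spindle microtubules (chr20:31739271-31801805), was at 322, 318 and 336 CPM in shPHF19 cells and at 161, 161 and 149 CPM in control cells (2.07-fold, log2 1.05, SE 0.0819, edgeR adjusted p = 1.8e-15). TACC3, which bundles the fibres that pull on kinetochores, was at 290, 283 and 268 CPM in shPHF19 cells and at 136, 147 and 135 CPM in control cells (2.02-fold, log2 1.01, SE 0.0828, edgeR adjusted p = 8.95e-15). GTSE1, a microtubule-binding protein of the spindle, was at 113, 120 and 105 CPM in shPHF19 cells and at 52.3, 56.9 and 59.5 CPM in control cells (log2 1.0, SE 0.0934, edgeR adjusted p = 6.07e-13). None of the 3 overlapped between the groups. PRC1, here the protein that bundles microtubules at the spindle midzone and not the Polycomb complex of the same name, rose by 0.90 on the log2 scale. DLGAP5 and NUSAP1, which stabilise spindle microtubules, rose by 0.68 and 0.54, and RACGAP1, part of the centralspindlin complex of cytokinesis, rose by 0.39.

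Of the 60 genes, the lowest log2 fold change was that of CKAP2, a microtubule-stabilising protein of the spindle poles (chr13:52455429-52476628). CKAP2 was at 49.5, 61.0 and 61.5 CPM in shPHF19 cells and at 97.0, 75.8 and 87.2 CPM in control cells. The groups did not overlap, with means of 57.3 ± 6.76 and 86.7 ± 10.6 CPM (SD, n = 3 each; log2 -0.60, SE 0.102, edgeR adjusted p = 2.04e-06). HMMR, a hyaluronan receptor that also positions the spindle (chr5:163460203-163491945), was at 26.4, 25.5 and 31.7 CPM in shPHF19 cells and at 39.6, 33.1 and 39.7 CPM in control cells. It was lower in every shPHF19 library (log2 -0.43, SE 0.119, edgeR adjusted p = 0.00181). The falls of CKAP2, HMMR and NDC80 were called under all 15 alternatives to the processing. ASPM, a spindle pole protein, was at 46.0, 45.5 and 56.2 CPM in shPHF19 cells and at 50.9, 35.2 and 56.8 CPM in control cells. The ASPM groups overlapped (log2 0.05, SE 0.121, edgeR adjusted p = 0.742), and its value ranged from -0.12 to 0.20 when each library was left out. With GC and length trends removed ASPM was called higher (0.40, limma adjusted p = 0.00362). ECT2, the exchange factor that sets up the cleavage furrow, did not pass (log2 0.07, edgeR adjusted p = 0.578), nor did ANLN (anillin), a scaffold protein of the furrow (log2 0.23, edgeR adjusted p = 0.0566). With GC and length trends removed both were called higher, ECT2 at 0.28 (limma adjusted p = 0.00728) and ANLN at 0.41 (limma adjusted p = 0.000141). ANLN was called higher without shPHF19 replicate 1 (0.32, edgeR adjusted p = 0.00788), without control replicate 1 (0.33, edgeR adjusted p = 0.00865), with RLE factors (0.25, edgeR adjusted p = 0.0386) and with no filter (0.25, edgeR adjusted p = 0.0405), over a range of 0.000141 to 0.849.

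Of condensin, the ring complex that compacts mitotic chromosomes, the regulatory subunits rose, while the ATPase subunits SMC2 and SMC4 were called lower only in part of the fits. With GC and length trends removed neither ATPase subunit was called, at -0.07 for SMC2 (limma adjusted p = 0.431) and 0.08 for SMC4 (limma adjusted p = 0.263). Of 8 genes of chromosome structure, 6 rose and 2 fell, with a median log2 fold change of 0.54. The share that rose was 75%, against 29.4% of all genes tested, and the share that fell 25%, against 30.9%. NCAPH, the kleisin that closes the ring (chr2:96335787-96373845), was at 129, 134 and 135 CPM in shPHF19 cells and at 68.1, 68.1 and 70.5 CPM in control cells (log2 0.94, SE 0.0878, edgeR adjusted p = 5.4e-13). NCAPD2 and NCAPG, its HEAT-repeat subunits, rose by 0.56 and 0.44 on the log2 scale. SMC2 was at 37.3, 39.1 and 44.1 CPM in shPHF19 cells and at 52.5, 47.4 and 48.6 CPM in control cells, without overlap (log2 -0.30, SE 0.106, edgeR adjusted p = 0.0126). SMC4 was at 162, 186 and 187 CPM in shPHF19 cells and at 223, 179 and 216 CPM in control cells, where control replicate 2 lay among the shPHF19 libraries (log2 -0.21, SE 0.088, edgeR adjusted p = 0.0352). SMC2 was not called without shPHF19 replicate 1 (-0.25, edgeR adjusted p = 0.0571), shPHF19 replicate 2 (-0.28, edgeR adjusted p = 0.0706) or control replicate 1 (-0.26, edgeR adjusted p = 0.054), over a range of 0.000108 to 0.431. SMC4 was not called without shPHF19 replicate 1 (-0.14), shPHF19 replicate 2 (-0.24), control replicate 1 (-0.15) or control replicate 3 (-0.17), nor with DESeq2 (-0.19), RLE factors (-0.19), no filter (-0.19) or the replicate number as a block (-0.21), with adjusted p from 0.000147 to 0.263. CDCA2, which brings a phosphatase to chromatin at mitotic exit, was at 36.7, 54.2 and 54.9 CPM in shPHF19 cells and at 27.4, 20.4 and 25.0 CPM in control cells (log2 1.0, SE 0.128, edgeR adjusted p = 3.66e-09). MKI67, the source of the Ki-67 antigen that coats mitotic chromosomes, was at 329, 317 and 302 CPM in shPHF19 cells and at 187, 197 and 236 CPM in control cells (log2 0.61, SE 0.0861, edgeR adjusted p = 3.34e-08). CDCA2 and MKI67 did not overlap between the groups, and TOP2A, the topoisomerase that untangles sister chromatids, rose by 0.51 on the log2 scale.

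Both transcription factors of late cell cycle genes rose. MYBL2 (B-MYB), which joins MuvB at CHR promoters (chr20:43667019-43716496), was at 593, 554 and 520 CPM in shPHF19 cells and at 269, 308 and 304 CPM in control cells. Its means were 555 ± 36.5 and 294 ± 21.5 CPM (SD, n = 3 each; log2 0.92, SE 0.0828, edgeR adjusted p = 1.92e-13). FOXM1, which follows MYBL2 at these promoters in G2, was at 112, 101 and 97.6 CPM in shPHF19 cells and at 62.1, 62.5 and 64.3 CPM in control cells (log2 0.72, SE 0.0919, edgeR adjusted p = 3.87e-09). Neither factor overlapped between the groups. FOXM1 overlaps ITFG2 on the opposite strand, ITFG2 rose by 0.68 on the log2 scale (edgeR adjusted p = 0.000307), and whether the counting used strand is not stated in the sources used here. In all, 20 of the 60 genes overlap another annotated gene and 17 have an annotated pseudogene copy.

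Per kilobase of exon, the level of MYBL2 was the highest of the 60 genes, at 200 ± 13.1 CPM per kb in shPHF19 cells and 106 ± 7.74 CPM per kb in control cells (SD, n = 3 each). CKS2 followed at 190 and 97.8 CPM per kb then UBE2C at 131 and 74.7, UBE2S at 121 and 60.6 and CDC20 at 108 and 51.4 CPM per kb in shPHF19 and control cells. The lowest level per kilobase was that of CENPE, at 2.04 CPM per kb in shPHF19 cells and 1.75 CPM per kb in control cells. By the longest transcript in place of all exons, MYBL2 stayed first and CDC20 moved to rank 9.

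Ratios between partner genes within a library, which do not depend on the scaling between libraries, did not overlap between the groups for 6 of 8 pairs. For single genes, 63.5% of all tested did not overlap in CPM, and the share over all pairs of genes was not computed. The count of pairs is thus a description only, and the pairs were chosen with earlier results of these data known. With 3 libraries against 3, the exact permutation test cannot give a 2-sided p below 0.1, which is 0.133 after adjustment over the 8 pairs, so no pair could pass 0.05. The log2 ratio of CCNB1 to CCNB2 was -0.35, -0.23 and -0.35 in shPHF19 cells and -1.09, -0.99 and -1.07 in control cells, a difference of 0.74. The log2 ratio of SPC24 to NDC80, members of the same kinetochore complex, was 0.03, -0.57 and -0.58 in shPHF19 cells and -1.51, -1.11 and -1.26 in control cells, a difference of 0.92. In both pairs the groups did not overlap, and shPHF19 replicate 1 stood above the others of its group in the second. The log2 ratio of AURKA to AURKB was 0.64, 0.65 and 0.75 in shPHF19 cells and 1.26, 1.14 and 1.08 in control cells, a difference of -0.48 and the only one of the 6 below 0. The log2 ratio of BIRC5 to INCENP was 1.13, 1.1 and 1.16 in shPHF19 cells and 0.84, 1.05 and 0.62 in control cells, a difference of 0.30, or 0.19 without control replicate 3. The smaller shifts without overlap were 0.31 for BUB1B over BUB1 and 0.18 for UBE2S over UBE2C, which was 0.12 without control replicate 1. For all 6 pairs the exact permutation p was 0.1. CKS2 over CKS1B differed by 0.20 (exact permutation p = 0.2, adjusted 0.229) and CDC25B over CDC25C by -0.03 (exact permutation p = 0.9), and both overlapped. Ratios can still carry differences between libraries along GC content. GC content was 53.4% in SPC24 and 40.1% in NDC80, and 55.6% in AURKB and 46.6% in AURKA. It was close in CCNB1 (43.1%) and CCNB2 (44.4%). With GC and length trends removed, log2 fold changes were 0.27 for SPC24, -0.38 for NDC80, 0.49 for AURKA and 0.83 for AURKB. The part of GC content in the ratios was not tested.

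**Figure D3:**
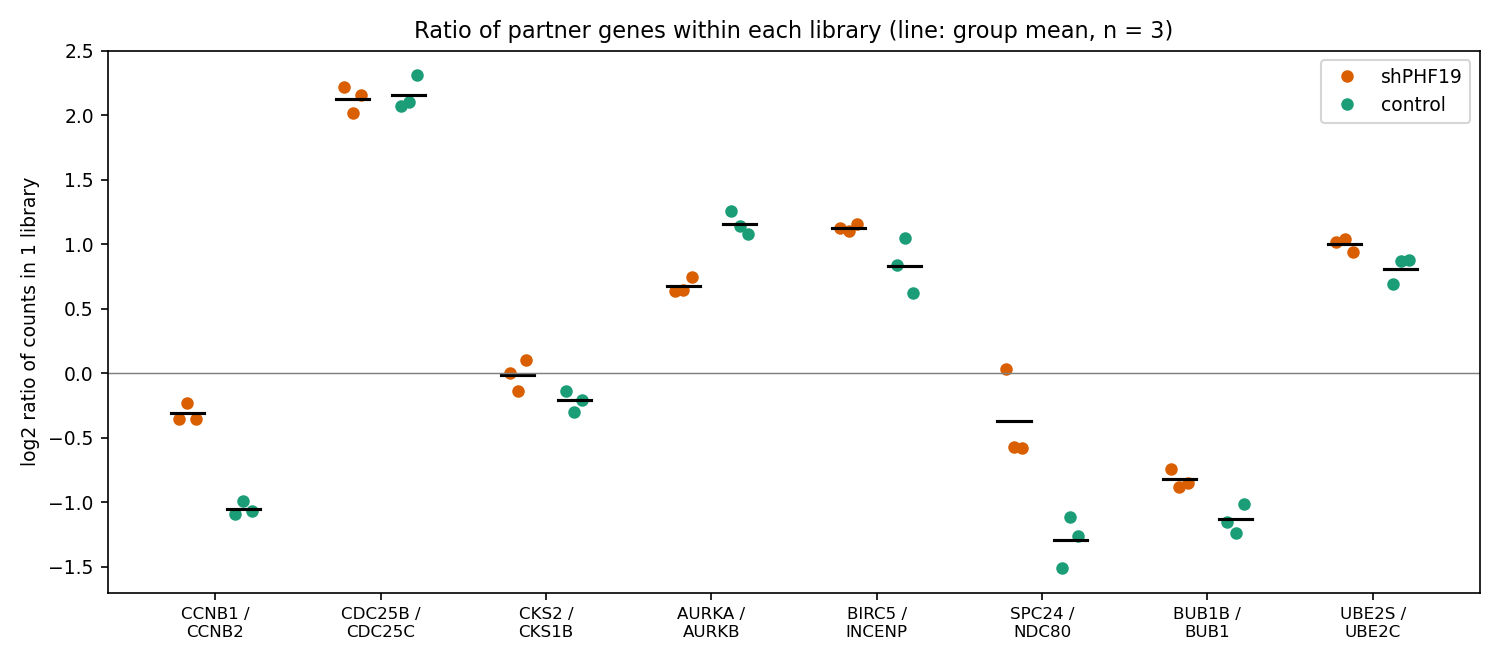
Log2 ratio of the counts of 2 partner genes within each library (vertical axis) for 8 pairs, shPHF19 libraries left of control libraries, with 1 point a library. The ratio of CCNB1 to CCNB2 is -0.31 ± 0.0705 in shPHF19 and -1.05 ± 0.0549 in control libraries (mean ± SD, n = 3 each), and only CKS2/CKS1B and CDC25B/CDC25C overlap.

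The fold changes of the 60 genes went with the GC content of their transcripts (the longest annotated one of each gene). Spearman's rho between log2 fold change and GC content was 0.69 over the 60 genes, against 0.17 over 12242 tested genes with an annotated length and GC content, and -0.29 with exon length, against -0.12. These are correlations across genes of the same 6 libraries, which are not independent replicates. Of 17 mitotic genes with at least 50% GC all 17 rose, with a median log2 fold change of 1.0, while 37.3% of all genes in that class rose and 24.5% fell. Of 29 with 40 to 50% GC, 21 rose and 3 fell (median 0.61), while 26.9% of all such genes rose and 33.6% fell. Of 14 with under 40% GC, 5 rose and 4 fell (median 0.06), while 15.3% of all such genes rose and 44.5% fell. Libraries of the same group also differed along GC. Genes under 40% GC deviated from their group mean by -0.119, 0.006 and 0.113 (median over genes, log2 CPM) in shPHF19 replicates 1 to 3 and by 0.129, -0.11 and -0.018 in control replicates 1 to 3, and genes of at least 50% GC deviated in the opposite direction in every library. The part of GC content in the fold changes was examined by removing a smooth trend in GC and in length from each library before the test.

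With these trends removed (limma-voom), 51 of the 60 genes were called higher and 5 lower, and 4 were not called, against 32.6% of all genes called higher and 33.1% called lower. The median log2 fold change was 0.59. Of the 10 genes that did not pass before, 8 were now called higher: CDK1 at 0.18, NEK2 at 0.29, MELK at 0.20, BUB3 at 0.38, CENPE at 0.58, ASPM at 0.40, ANLN at 0.41 and ECT2 at 0.28. TTK and NUF2 were again not called. PBK, NDC80, SGO1, HMMR and CKAP2 were again called lower. SMC2 (-0.07, limma adjusted p = 0.431) and SMC4 (0.08, limma adjusted p = 0.263) were not, the highest adjusted p of both over all alternatives. The correlation of the remaining log2 fold change with GC content was 0.46 over the 60 genes, so the trend over all genes did not remove all of it.

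**Figure D4:**
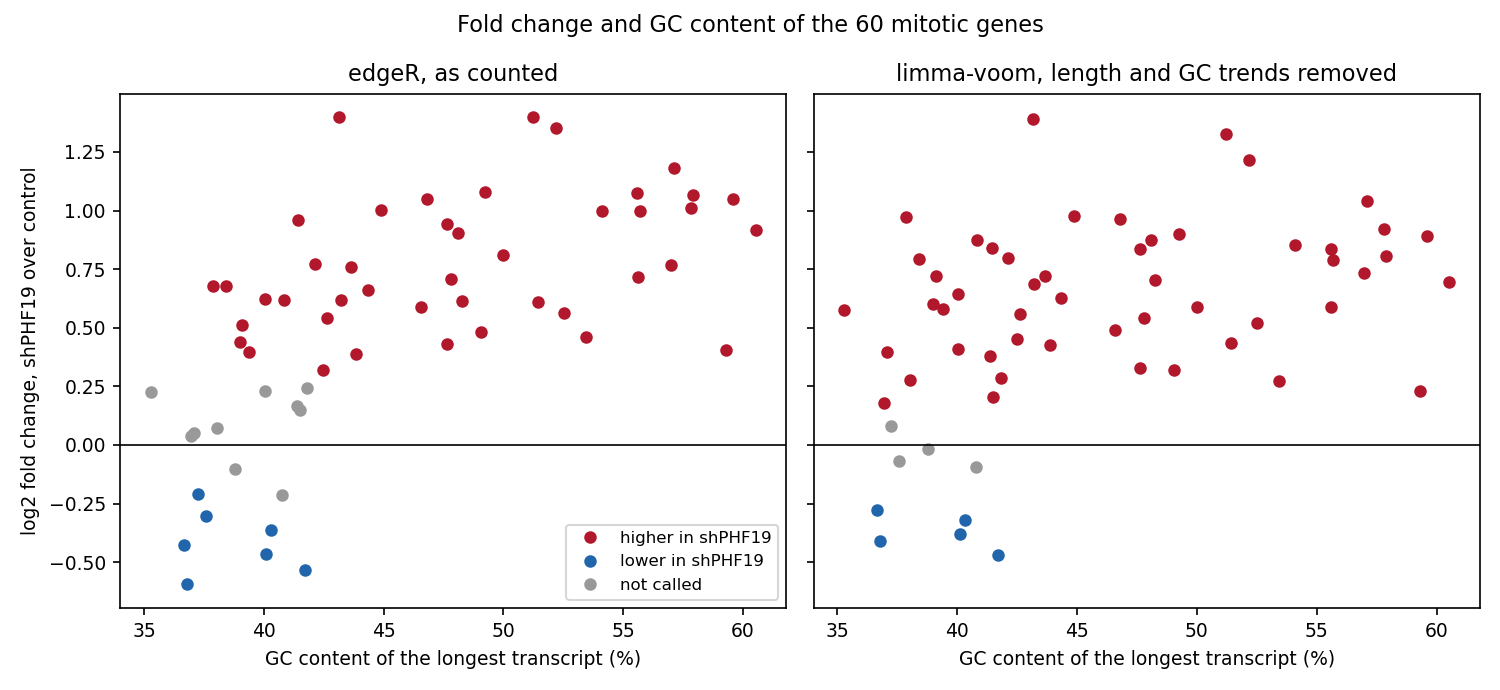
Log2 fold change of each of the 60 mitotic genes, shPHF19 over control (vertical axis), against the GC content of its longest annotated transcript in percent (horizontal axis), coloured by call, as counted with edgeR on the left and with length and GC trends removed on the right. On the left all 17 genes with at least 50% GC rose and Spearman's rho over the 60 genes is 0.69, and on the right it is 0.46.

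Other genes of the same machinery, 122 in 8 lists, are given for comparison. Of 121 that were tested, 40 rose (33.1%, against 29.4% of all genes tested), 25 fell (20.7%, against 30.9%) and 56 did not pass, with a median log2 fold change of 0.11. With GC and length trends removed, 54 were called higher and 25 lower. Of 16 core subunits and regulators of the APC/C, 8 rose (50%) and 2 fell (12.5%), with a median of 0.22. There were 5 rises without control replicate 3, 1 fall without shPHF19 replicate 2, and 4 rises and 4 falls with library totals alone. The called genes include the catalytic pair ANAPC11 (log2 1.1) and ANAPC2 (0.62), the scaffold subunit ANAPC5 (0.76), ANAPC16 (-0.99) and ANAPC4 (-0.37). Of 28 genes of the inner and outer kinetochore, centromere loading and the SKA complex, 7 rose (25%) and 8 fell (28.6%, median 0.09). Without control replicate 1 there were 3 falls, and with trends removed 10 were called higher and 6 lower. Among the rises were CENPW (1.38), CENPX (1.18) and CENPM (0.79), of the centromere-bound network, and among the falls DSN1 (-0.55, outer kinetochore), SKA1 (-0.52) and CENPU (-0.44). Of 8 other checkpoint genes, 2 rose (25%) and 2 fell (25%, median 0.03), with 4 falls with upper-quartile factors or library totals alone. TRIP13, which resets MAD2, rose by 1.44 on the log2 scale and MAD1L1, the kinetochore anchor of MAD2, by 0.66, while KNTC1 (-0.59) and ZWILCH (-0.49) of the RZZ complex fell.

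Over all genes tested 29.4% rose and 30.9% fell, and the shares of the lists beside these were not tested. Of 15 genes of cohesin, the ring that holds sister chromatids, 2 rose (13.3%) and 6 fell (40%), with a median of -0.06. With trends removed 6 were called higher and 5 lower (median 0.09). The rises were SMC1A (log2 0.54) and CDCA5 (sororin, 0.27), and the falls included STAG2 at -0.78, the release factor WAPL at -0.69 and the acetyltransferase ESCO1 at -0.81. All 5 genes of condensin II and mitotic chromatin rose (median 0.46), including NCAPD3 (0.99), KIF4A (0.78) and NCAPG2 (0.46). Only 4 rose with upper-quartile factors, and 4 to 5 when each library was left out. Of 12 regulators of mitotic entry and exit, 5 rose (41.7%) and 2 fell (16.7%), with a median of 0.06. CCNF (1.30) and ENSA (0.80) were higher and MASTL (Greatwall kinase, -0.49) was lower. The other fall was that of CDC14B, a phosphatase, which held 4, 4 and 3 counts in shPHF19 cells and 18, 17 and 14 counts in control cells, near the floor of 3 counts, and passed the filter only through the control libraries, so no fold is given. With library totals alone 4 fell. Of 23 tested genes of centrosome, spindle assembly and abscission, 7 rose (30.4%) and 4 fell (17.4%), with a median of 0.01. With library totals alone 4 rose and 8 fell. The called genes include TUBG1 (gamma-tubulin, 1.13), KIF23 (0.66), CIT (citron kinase, 0.62), HAUS6 (-0.68) and HAUS4 (-0.31). CCNB1IP1 (-0.29), named as a cyclin B1-interacting protein and not as a spindle gene, was also placed in this list and is counted among its falls. Of 14 subunits of DREAM, MuvB and NF-Y, which act at CHR and CCAAT promoters, 4 rose (28.6%) and 1 fell (7.14%, median -0.04). With library totals alone 2 rose and 6 fell, and without shPHF19 replicate 3 there were 2 falls. TFDP1 (0.72), E2F4 (0.71) and NFYA (0.37) were among those that rose, and LIN54, the MuvB subunit that contacts CHR letters, fell by 0.49 on the log2 scale.

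**Figure D5:**
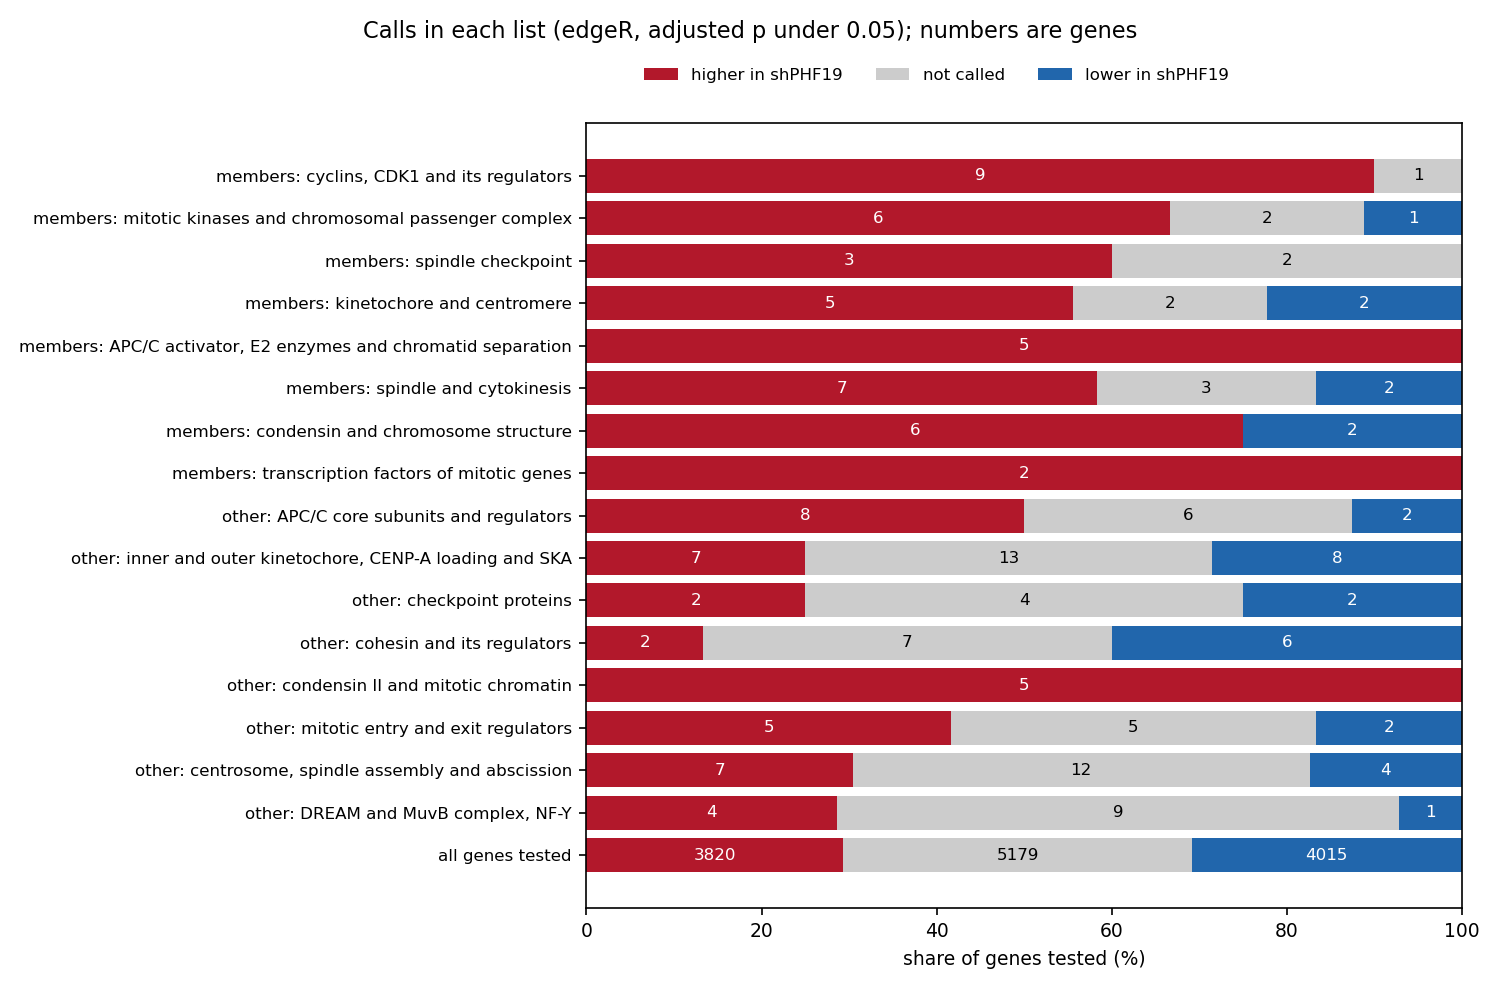
Share of genes called higher, not called and called lower in shPHF19 over control (horizontal axis, percent of genes tested, with numbers of genes in the bars) for the 8 role groups of the 60 genes (marked members), the 8 other mitotic lists and all 13014 genes tested. Rises fill the whole bar for APC/C activation (5 genes), the transcription factors (2) and condensin II (5).

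In the authors' deposited table of changed genes, whose largest adjusted p was 0.00993 and smallest absolute log2 fold change 0.32, 46 of the 60 genes were listed, against 29.5% of genes with a count. These sets are unlike, since the 19419 genes with a count include many that did not pass the filter on low counts, which all 60 passed. The share among the 13014 genes that passed was not computed and can be higher than 29.5%. Of these, 43 were higher and 3 lower in the authors' deposited table, namely NDC80 (-0.42), HMMR (-0.39) and CKAP2 (-0.56). The 4 genes called here and not listed in the authors' deposited table were PBK, SGO1, SMC2 and SMC4, and no listed gene went without a call here.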

How the data were processed

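RNA from 3 shPHF19 and 3 control libraries of Kasumi-1 cells was compared, grouped and numbered by their titles. HISAT2 2.1.0 and HTSeq 0.11.2 with hg38 are named in the submitters' processing notes, whereas the annotation and strand setting are not stated in the sources used here. The authors deposited whole-number counts per gene symbol in 26410 rows, not normalized. In 28 rows, with 0.195% of all counts, the name had been turned into a date. A second table that the authors deposited holds their comparison, as mean normalized signal, log2 fold changes and p-values, and its log2 fold changes are quoted where named. The 60 genes, the lists and the tests were chosen with earlier results of these data known.

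The test was that of edgeR 4.0.16 (R 4.3.3) on the counts as deposited (filterByExpr, TMM, quasi-likelihood F test with group as the only term, Benjamini-Hochberg over 13014 genes, threshold 0.05). The biological coefficient of variation was 0.0915. CPM (counts per 1e6 TMM-scaled counts) and log2 fold changes were computed here, and a standard error is the log2 fold change over the square root of F. GENCODE 29 (GRCh38) gave gene positions, lengths and GC content for 94.1% of tested genes. For the trend-removed values, smooth trends in length and GC content were taken from each library's log2 values before limma 3.58.1 (voom). Ratios used counts plus 0.5 and exact permutation tests, 2-sided. Values in every library are given for up to 3 genes of each role group with the smallest adjusted p, genes that fell, both genes of each pair and the gene with the largest adjusted p of each role group. Of other mitotic genes, up to 3 higher and 3 lower per list with the smallest adjusted p are named. A few values that these rules cover are left out here. No replicates of a group agreed within sampling noise (4.63 to 11.7, chi-square divided by its degrees of freedom). The test was checked on simulated counts. It called 89 of 100 genes with a true absolute log2 fold change of 1 and 57 of 96 with 0.5, in the right direction. It also called 5 of 12681 unchanged genes. Far fewer genes were changed there than the 60.2% called in the data, so the check does not cover scaling or threshold at that share. Alternatives were other scalings, filters and tools (DESeq2 1.42.0), a replicate block and each library left out. Protein sequences and the hairpin were not used here.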

Additional observations from a re-analysis of the deposited data

How the results depend on the processing

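Of the 60 genes, 41 kept their call under all 15 alternatives, 38 of them higher and 3 lower. The median log2 fold change of the 60 genes was 0.61 and became 0.51 with upper-quartile factors, 0.41 with library totals alone, 0.64 with DESeq2, 0.59 with trends removed and 0.59 to 0.64 when each library was left out. The median of all genes was -0.03, -0.14 with upper-quartile factors and -0.24 with totals alone; 40% and 31.5% of called genes were higher under these scalings, against 48.8%. With library totals alone 38 of the 60 rose and 8 fell, and with upper-quartile factors 43 rose and 8 fell. The number of the 60 that rose ranged from 43 to 47 when each library was left out, and the number that fell from 3 to 7, with 3 without control replicate 1 and 4 without shPHF19 replicate 1 or shPHF19 replicate 2. Signs turned for genes that were not called: CDK1 to -0.06, ASPM to -0.05 and ECT2 to -0.03 with upper-quartile factors, and CDK1 to -0.17, ASPM to -0.16, ECT2 to -0.13, MELK to -0.05 and BUB3 to -0.04 with totals alone. SMC4 turned to 0.08 with trends removed. When each library was left out, CDK1 ranged from -0.07 to 0.16, NUF2 from -0.31 to 0.06, ASPM from -0.12 to 0.20, and the difference in the CDC25B to CDC25C ratio from -0.07 to 0.05. In the last 150 bases of the promoter windows, the E-box share was 2.04%, against 6.21% of all promoters, below the background rather than above it as in the whole windows, and the E2F share 0%, against 1.29%. Same-numbered libraries did not deviate together (correlations -0.164, -0.007 and -0.054). Differences along GC content also enter these deviations, so whether the numbers pair the libraries cannot be told from them. With the replicate number as a block, 43 of the 60 genes rose and 6 fell, and 7307 genes were called in all, against 7835. At this depth 3 counts correspond to at most 0.223 CPM, far below every one of the 60 genes. Causes were not tested.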
